A study of Homo sapiens with 2 samples.

Results

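The genes of the glutamate and glutamine tRNAs were examined in RNA bound to hTrmt13 (TRMT13), a human tRNA methyltransferase, in MDA-MB-231, an established human breast carcinoma cell line. Members were taken by name and annotation only: every feature of the tRNA class whose name starts with tRNA-Glu or tRNA-Gln, with tRNA lookalikes left out. This gave 59 genes of 596 tRNA features and 741078 listed features in all, of which 28 are glutamate and 31 glutamine genes. By anticodon they divide into 16 Glu-TTC, 12 Glu-CTC, 22 Gln-CTG and 9 Gln-TTG genes. Bound RNA was measured by CLIP-seq, which sequences the RNA that an antibody pulls down together with a crosslinked protein. There was 1 group of 2 libraries, replicate 1 and replicate 2, and the labels name no treatment of the cells. Before sequencing, the RNA of both was treated with AlkB-type enzymes that remove base modifications. With 0 control libraries analysed here, counts describe what was recovered and not an enrichment.

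A tRNA carries its amino acid to the ribosome and reads codons with its anticodon. Glutamate tRNAs with anticodons TTC and CTC read the codons GAA and GAG, and glutamine tRNAs with TTG and CTG read CAA and CAG. In these families the TTC and TTG anticodons start with a uridine that the Elongator complex and thiolation enzymes modify. Human cells hold many nearly identical copies of each tRNA gene, and the series of numbers in a name gives the isodecoder and then the gene copy. Copies with the same isodecoder number share 1 mature tRNA sequence in this naming scheme. The yeast relative of hTrmt13 is known to methylate glycine, histidine and proline tRNAs. Reads matching several copies cannot be traced to 1 gene, and how the authors divided them is not given in the sources used here, so counts of single copies are uncertain throughout.

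For the second read mate (R2), 11246823 counts were deposited in replicate 1 and 8793089 in replicate 2, and for the first (R1), 27907799 and 20590398. Values are R1 counts unless stated, paired values are those of replicate 1 and then replicate 2, and CPM is counts per 1000000 of the library's R1 total. tRNA features took 60.02% and 56.36% of the R1 counts. That total, which also sets CPM, includes genes that span a tRNA and repeat its counts. The labels do not say whether the libraries came from separate cultures, so the SD between them may be technical. Intervals and floors cover counting error only, since PCR reads without molecular identifiers are not independent molecules. Of the genes listed as markers of this line's mesenchymal type, VIM stood at 24.4 ± 15.1 CPM (SD, n = 2), and the 5 together summed to 17.0 CPM in replicate 1 and 43.2 CPM in replicate 2, of which VIM alone made up 13.69 and 35.06. Of the others, FN1 averaged 3.56, SPARC 1.21, AXL 0.578 and CD44, under the minimum count of 10, 0.385 CPM. The 5 epithelial or luminal genes summed to 3.80 and 8.31 CPM. Each averaged 0.557 to 1.96 CPM, a range that SPARC and AXL lie in and CD44 lies below. Of the 3 genes of other tissues, 0 had a mean of at least 10 R1 counts, with ALB, a liver gene, at 0. HBB (0.381 CPM) and PTPRC (0.331 CPM), however, lay close to CD44, and HBB had 14 and 44 R2 counts. No test between conditions was possible with 1 group, and 2 libraries set against 2 could not give an exact two-sided permutation p below 0.333.

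Glutamate tRNAs were recovered more than glutamine tRNAs in both libraries. The 28 glutamate genes held 295962 counts in replicate 1 and 250043 in replicate 2. The 31 glutamine genes held 68254 and 42884. As shares of all tRNA counts, glutamate took 1.767% and 2.154%, with exact Clopper-Pearson 95% intervals of 1.7605 to 1.7732% and 2.1462 to 2.1629%, a mean of 1.96% ± 0.274 (SD, n = 2). Glutamine took 0.4075% (0.40442 to 0.41053%) and 0.3695% (0.36603 to 0.37302%), a mean of 0.389% ± 0.0268 (SD, n = 2). The count of glutamate over that of glutamine was 4.34 in replicate 1 and 5.83 in replicate 2, and per gene copy 4.80 and 6.455. The mean ratio of 5.08 was 3.04 with members inside another gene left out. Both isotypes lay below their share of the 596 tRNA features, which is 4.70% for glutamate and 5.20% for glutamine. Most isotypes did. Of 22 isotypes, only arginine, lysine, threonine and methionine averaged more per gene copy than the 976 CPM per feature of all tRNA features. The gap between the isotypes was larger than the spread between the libraries, as their shares did not overlap.

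Within glutamate, the TTC anticodon led. Glu-TTC took 1.45% ± 0.176 of tRNA counts and Glu-CTC 0.516% ± 0.0982 (SD, n = 2 each). The Glu-TTC count was 2.962 and 2.57 times that of Glu-CTC in R2 and 2.956 and 2.68 times in R1. Within glutamine the anticodons were close, with Gln-CTG at 0.184% ± 0.0153 and Gln-TTG at 0.205% ± 0.0116 of tRNA counts (SD, n = 2 each). Their order depended on the mate and on which genes were counted. Gln-CTG over Gln-TTG was 1.72 and 1.81 in R2, but 0.914 and 0.881 in R1. Within R1 the order also turned when tRNA features inside another gene were left out (mean shares of 0.3027% for Gln-CTG and 0.2894% for Gln-TTG) and without each family's highest gene (0.3216% and 0.1044%).

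**Figure D1:**
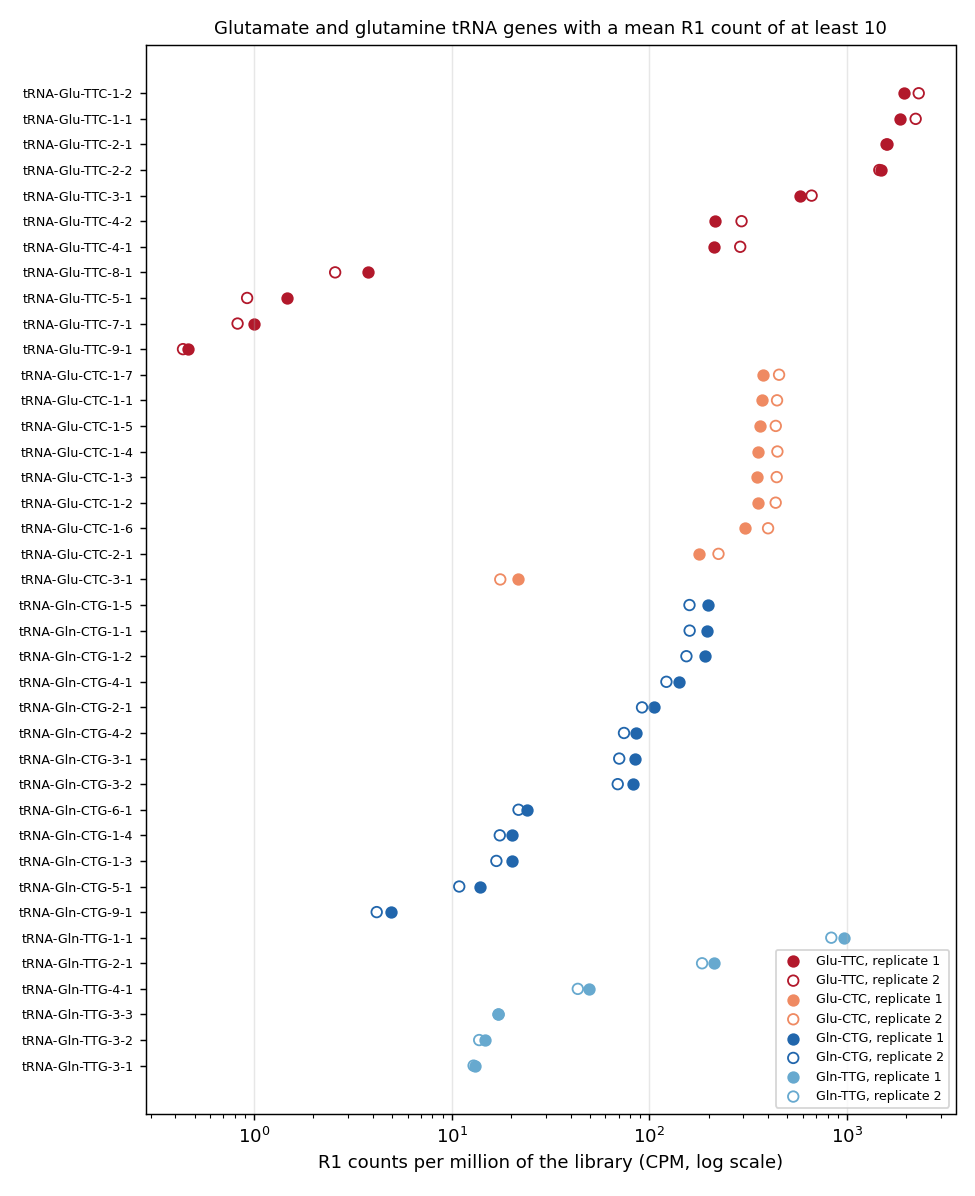
R1 CPM on a log axis for the 39 glutamate and glutamine tRNA genes with a mean R1 count of at least 10, with filled points for replicate 1, open points for replicate 2 and a colour for each anticodon family. Glu-TTC spans the widest range, from 2132 CPM for tRNA-Glu-TTC-1-2 to 0.452 CPM for tRNA-Glu-TTC-9-1, while 7 of the Glu-CTC genes lie close together.

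The leading 4 genes of Glu-TTC, in 2 isodecoder sets, carried most of the glutamate counts. tRNA-Glu-TTC-1-2 (hg19 chromosome 13, 41634874 to 41634945, minus strand) had 54507 and 47602 counts, a level of 2132 ± 254 CPM (SD, n = 2). Its sequence twin tRNA-Glu-TTC-1-1 (chromosome 2, 131094701 to 131094772, minus strand) had 52171 and 45944 counts, or 2050 ± 256 CPM. The copies thus stood within 1.05 times of each other in either library. As they share 1 mature sequence, these counts cannot show how much came from each gene. tRNA-Glu-TTC-2-1 (chromosome 13, 45492062 to 45492133, minus strand) had 44690 and 32722 counts, or 1595 ± 8.60 CPM (SD, n = 2). tRNA-Glu-TTC-2-2 (chromosome 15, 26327381 to 26327452, minus strand) had 41515 and 30078 counts, or 1474 ± 19.0 CPM (SD, n = 2). Together these 4 held 65.2% of the glutamate counts in replicate 1 and 62.5% in replicate 2. The fifth, tRNA-Glu-TTC-3-1 (chromosome 1, 17199078 to 17199149, plus strand), stood well behind with 16125 and 13664 counts, or 621 ± 60.7 CPM (SD, n = 2). The pair tRNA-Glu-TTC-4-2 and tRNA-Glu-TTC-4-1, both on chromosome 1, stood at 254 ± 54.9 and 251 ± 53.9 CPM (SD, n = 2 each). Next below them came tRNA-Glu-TTC-8-1, with 105 and 53 counts, so that 7 of the 16 genes had a mean of at least 1000 counts.

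Most Glu-CTC counts were spread nearly evenly over the 7 copies of 1 isodecoder set. As these share 1 mature sequence, the counts cannot show how much came from each gene. The 7 genes of the Glu-CTC-1 set held 92.5% of this family's counts in replicate 1 and 92.7% in replicate 2. The highest, tRNA-Glu-CTC-1-7 (chromosome 6, 126101393 to 126101464, minus strand), had 10508 and 9352 counts, or 415 ± 54.9 CPM (SD, n = 2), and it held only 14.05% and 13.8% of the family. tRNA-Glu-CTC-1-1 on chromosome 1 followed with 10355 and 9133 counts. Copies 1-2, 1-3, 1-4 and 1-5, which lie in a row on chromosome 1 between 161417018 and 161439260, had 9857 to 10167 counts in replicate 1 and 8990 to 9171 in replicate 2. Apart from copy 1-6, the highest of the set exceeded the lowest by no more than 1.07 times in replicate 1 and 1.04 times in replicate 2. tRNA-Glu-CTC-1-6 (chromosome 6, 28949976 to 28950047, plus strand) was the lowest of the set, with 8549 and 8228 counts. Outside the set, tRNA-Glu-CTC-2-1 (chromosome 1) had 4991 and 4616 counts and tRNA-Glu-CTC-3-1 (chromosome 13) had 603 and 363.

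Gln-CTG copies of 1 isodecoder set differed widely in their counts. tRNA-Gln-CTG-1-5 (chromosome 17, 8023070 to 8023141, plus strand) had 5511 and 3293 counts, a level of 179 ± 26.6 CPM (SD, n = 2). tRNA-Gln-CTG-1-1 (chromosome 6, 18836402 to 18836473, plus strand) had 5448 and 3298 counts, and tRNA-Gln-CTG-1-2 (chromosome 6, 27487308 to 27487379, plus strand) had 5356 and 3178. The other copies of that set, tRNA-Gln-CTG-1-3 (chromosome 6, 28909378 to 28909449, minus strand) and tRNA-Gln-CTG-1-4 (chromosome 15, 66161400 to 66161471, minus strand), had 562 counts each in replicate 1 and 347 and 361 in replicate 2. From highest to lowest the set spanned 9.81 times in replicate 1 and 9.50 times in replicate 2. The Glu-TTC-1, Glu-TTC-2 and Glu-TTC-4 pairs stayed within 1.09 times, and so did the Gln-CTG-3 pair, at 1.03 and 1.02 times. In the Gln-CTG-4 pair, tRNA-Gln-CTG-4-1 (chromosome 1, 147737382 to 147737453, minus strand) had 3930 and 2517 counts and tRNA-Gln-CTG-4-2 (chromosome 1, 149186125 to 149186196, plus strand) had 2394 and 1535. tRNA-Gln-CTG-2-1 on chromosome 6 lay between the members of that pair, with 2936 and 1894 counts.

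A single gene carried most of Gln-TTG. tRNA-Gln-TTG-1-1 (chromosome 17, 47269890 to 47269961, plus strand) had 27113 and 17189 counts, a level of 903 ± 96.7 CPM (SD, n = 2). That was 76.0% and 75.4% of the family and 39.7% and 40.1% of all glutamine counts, the highest of any glutamine gene in both libraries. tRNA-Gln-TTG-2-1 (chromosome 6, 28557156 to 28557227, plus strand) came next with 5914 and 3813 counts. tRNA-Gln-TTG-4-1, also on chromosome 6, had 1377 and 896. The 3 copies of Gln-TTG-3, all on chromosome 6, had 367 to 477 counts in replicate 1 and 266 to 356 in replicate 2.

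Among all 596 tRNA features, 473 had a mean R1 count of at least 10. Of the 59 genes, 39 did and 20 did not. Of these 20, 9 had no R1 count in either library and 11 had between a mean of 0.5 and of 9. With 3 counts taken as the limit that a count of 0 allows, the silent genes could have stood at up to 0.107 CPM in replicate 1 and 0.146 CPM in replicate 2. The 4 silent glutamate genes were tRNA-Glu-TTC-11-1, tRNA-Glu-TTC-12-1, tRNA-Glu-TTC-13-1 and tRNA-Glu-CTC-16-1, the last with 1 R2 count in replicate 2. The 5 silent glutamine genes were tRNA-Gln-CTG-13-1, tRNA-Gln-CTG-16-1, tRNA-Gln-CTG-17-1, tRNA-Gln-TTG-5-1 and tRNA-Gln-TTG-10-1. Gene length, which played no part in choosing the members, went with the counts. Of 43 genes of 72 bases, 36 had a mean of at least 10 counts, against 3 of 16 genes of 68 to 78 bases outside that length. Those 16 together held 739 counts in replicate 1 and 432 in replicate 2, against 363477 and 292495 for the 43. tRNA-Glu-CTC-3-1, at 73 bases, supplied 603 and 363 of the counts of those 16.

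RefSeq annotation divided the members in a similar way. By symbol, chromosome and length, 40 of the 59 matched a gene of the GRCh38.p14 assembly, of which 34 are annotated there as tRNA and 6 as pseudogene. Of the 34, 33 had a mean of at least 10 counts, and the median over the 34 was 4603. tRNA-Gln-CTG-7-1 was the exception, with 2 counts in replicate 1 and 1 in replicate 2. Of the 6 pseudogenes, 2 did, namely tRNA-Gln-CTG-9-1 with 138 and 86 counts and tRNA-Glu-TTC-7-1 with 28 and 17. The 19 without such a match had a median of 1 count, and 4 had a mean of at least 10. The 34 tRNA genes held 363256 counts in replicate 1 and 292360 in replicate 2, nearly all of the 364216 and 292927 of the 59.

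The R2 count relative to the R1 count was higher for the summed glutamate genes than for the summed glutamine genes. Single glutamine genes lay on both sides of the glutamate median. Glutamate genes together had an R2 count of 0.690 and 0.637 times the R1 count, and glutamine genes 0.554 and 0.512 times. All tRNA features together lay below both, at 0.427 and 0.415. In R2 both isotypes therefore took more of the tRNA counts, 3.08% ± 0.318 for glutamate and 0.493% ± 0.0522 for glutamine (SD, n = 2 each). Among the anticodon families Gln-TTG alone took less, 0.194% and 0.162% in R2 against 0.213% and 0.1965% in R1. By gene, however, the median ratio of the 20 glutamate genes past the minimum count was 0.707 and 0.691, and that of the 19 glutamine genes only 0.182 and 0.239. The median of 473 tRNA features with that minimum was 0.402 and 0.384. Mates of a library are not independent samples, so these ratios were not tested.

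**Figure D2:**
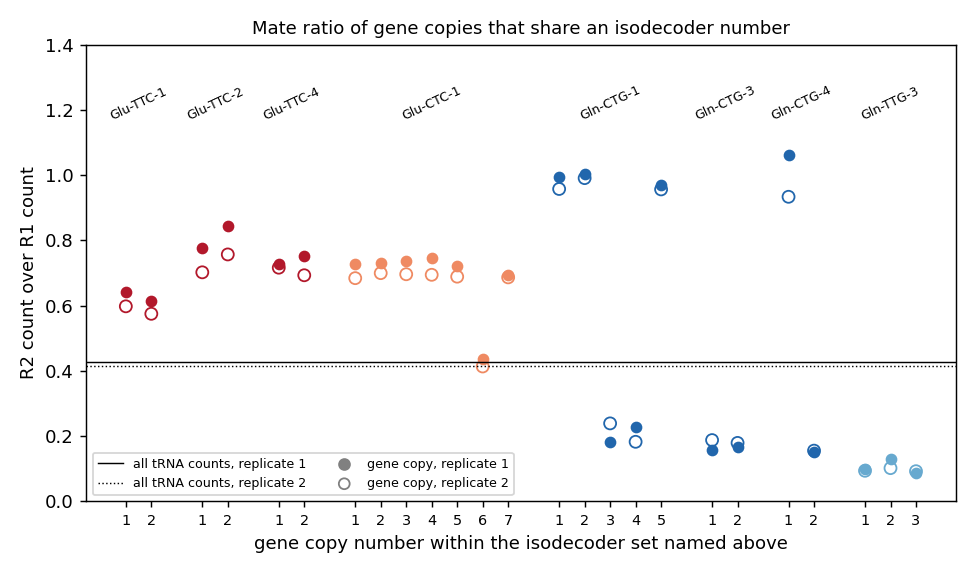
R2 count over R1 count for each gene copy in the 8 isodecoder sets with several copies past the minimum count, with filled points for replicate 1, open points for replicate 2 and black lines for all tRNA counts. Copies 1, 2 and 5 of Gln-CTG-1 lie between 0.956 and 1.004, copies 3 and 4 between 0.182 and 0.239, and copy 6 of Glu-CTC-1 lies below the other copies of its set.

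In the Gln-CTG-1, Gln-CTG-4 and Glu-CTC-1 sets, copies differed in this ratio. tRNA-Gln-CTG-1-1 had 5421 R2 against 5448 R1 counts in replicate 1 and 3158 against 3298 in replicate 2. tRNA-Gln-CTG-1-3 had 102 R2 against 562 R1 counts and 83 against 347. In the Gln-CTG-1 set the R2 counts thus spanned 53.2 times in replicate 1 and 47.9 times in replicate 2, far more than the R1 counts. tRNA-Gln-CTG-4-1 had the highest ratio of the 39 genes in replicate 1, 1.06, with 0.934 in replicate 2. Its partner tRNA-Gln-CTG-4-2 had 0.150 and 0.156. Among glutamate genes, tRNA-Glu-CTC-1-6 had 3740 R2 against 8549 R1 counts and 3403 against 8228, ratios of 0.438 and 0.414. The other 6 copies of its set had 0.694 to 0.746 and 0.684 to 0.6997, so this copy was the lowest of its set in both libraries. It was set apart only after seeing these values. The R2 counts of the Glu-TTC-1, Glu-TTC-2 and Glu-TTC-4 pairs stayed within 1.05 times and those of the Gln-CTG-3 pair within 1.07 times, and those of the Glu-TTC-1 copies were 33433 and 33499 in replicate 1 and 27377 and 27473 in replicate 2.

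Counted by a fixed fold, 4 of the 39 members had a ratio more than 2 times that of all tRNA counts in both libraries, where 11.8% of 473 tRNA features did. These 4 were tRNA-Gln-CTG-1-1, tRNA-Gln-CTG-1-2, tRNA-Gln-CTG-1-5 and tRNA-Gln-CTG-4-1. Past 2-fold in the lower direction lay 9 of the 39, where 26.4% of the tRNA features did, so neither share of the members stands far from that of tRNA features. Of the 9, 8 were glutamine genes, with tRNA-Glu-CTC-3-1 the exception. It had 8 R2 against 603 R1 counts in replicate 1 and 4 against 363 in replicate 2, the lowest ratios of the 39, 0.01327 and 0.01102. For tRNA-Gln-TTG-4-1 the libraries differed, with 181 R2 against 1377 R1 counts in replicate 1 but 22 against 896 in replicate 2. The 3 Gln-TTG-3 copies lay at 0.08805 to 0.129 in replicate 1 and 0.0927 to 0.102 in replicate 2.

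With CPM scaling, most of the abundant glutamate genes were higher in replicate 2 and nearly all glutamine genes lower. No member passed 2-fold in either direction (0 of 39), where 2.75% of tRNA features were past it as higher and 1.48% as lower. Over all 18723 features with the same minimum, 60.2% were past 2-fold higher and 0.198% lower. This split depended on the scaling. With TMM factors 0 of the 39 members were past 2-fold higher and 26 lower, where 0.211% and 62.2% of tRNA features were, and DESeq2 size factors gave the same counts. Over all features 3.03% were then past 2-fold higher and 5.08% lower with TMM factors, and 3.02% and 5.08% with DESeq2 size factors. In the R2 tables, scaled by their own totals, 0 of 37 members with a mean R2 count of at least 10 were past 2-fold higher and 3 lower (tRNA-Gln-TTG-4-1, tRNA-Glu-TTC-8-1 and tRNA-Glu-TTC-5-1), where 2.31% and 4.4% of tRNA features and 46.8% and 0.31% of all features were. The median log2 ratio of replicate 2 over replicate 1 with CPM scaling was 0.26 over the 20 glutamate genes and -0.20 over the 19 glutamine genes, but with TMM factors, which lower every log2 ratio by 1.09, both were negative, at -0.84 and -1.30. Over tRNA features the CPM median was -0.01 and over all features 1.09. Of the 15 glutamate genes with a mean of at least 1000 counts, 13 were higher in replicate 2 by CPM, and tRNA-Glu-TTC-2-1 and tRNA-Glu-TTC-2-2, at ratios of 0.992 and 0.982, were not. Of the 11 such glutamine genes, 0 were higher. The difference of 0.46 between the medians of the isotypes is the same under any scaling of the libraries, but it compares single libraries and was not tested.

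**Figure D3:**
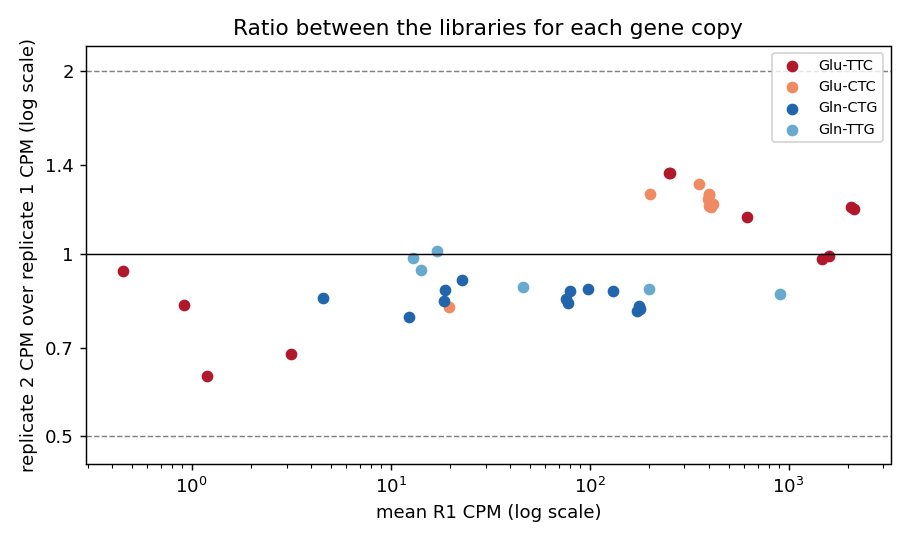
Replicate 2 CPM over replicate 1 CPM for each of 39 gene copies against its mean R1 CPM, both on log axes, with dashed lines at 2-fold. Glutamate genes (red and orange) reach 1.36 and glutamine genes (blue) lie between 0.786 and 1.01, and no gene crosses the dashed lines.

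The highest and lowest CPM ratios between the libraries were those of glutamate genes. tRNA-Glu-TTC-4-2 had 6019 counts in replicate 1 and 6040 in replicate 2, a CPM ratio of 1.36, and its twin tRNA-Glu-TTC-4-1 had 5933 and 5946, a ratio of 1.358. tRNA-Glu-CTC-1-6 followed at 1.30. At the low end were tRNA-Glu-TTC-5-1 with 41 and 19 counts (0.628) and tRNA-Glu-TTC-8-1 with 105 and 53 (0.684), both of low counts. The third lowest was tRNA-Gln-CTG-5-1, with 388 and 225 counts (0.786). tRNA-Gln-TTG-3-3, at 1.01, was the only glutamine gene past the minimum count that was not lower in replicate 2.

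Many counts of members appeared a second time in the count of an overlapping gene. Of the 59, 25 lie in the span of another listed gene, and 14 of these were past the minimum count. In all 17 pairs of such a member and an overlapping feature, the feature held at least the member's count in both libraries. This included 6 of 6 pairs on opposite strands. A feature with many reads of its own also meets this comparison, so the counts left without the tRNA tell more. ELF1, a transcription factor gene on the minus strand of chromosome 13, spans tRNA-Glu-TTC-1-2 and had 54585 counts in replicate 1 and 47724 in replicate 2, of which 78 and 122 were left after the tRNA was taken off. HFE2, on the plus strand and so opposite to the tRNA, spans tRNA-Glu-CTC-1-1 and had 10356 and 9135 counts, with 1 and 2 left. The long non-coding RNA gene RP11-122G18.10 (chromosome 1, 161373199 to 161440313) spans 25 tRNA features, 5 of them members. The members held 71.2% of its 64385 counts in replicate 1 and 75.0% of its 56391 counts in replicate 2. CROCC, whose span holds tRNA-Glu-TTC-3-1 and 4 further tRNA features, had 1581 and 1188 counts left. The second highest Gln-TTG gene, tRNA-Gln-TTG-2-1, lies in ZBED9 and in RP5-1186N24.3, which kept 19 and 17, and 4 and 3 counts. tRNA-Gln-CTG-1-4, by contrast, had 562 and 361 counts against 731 and 624 for RAB11A, which spans it and kept 169 and 263. The lead glutamine gene tRNA-Gln-TTG-1-1 and the other 3 of the highest glutamate genes lie in no listed gene, and exons, introns and UTRs of hg19 were not used here.

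Set against the other isotypes per gene copy, glutamate stood in the middle and glutamine near the bottom, on a CPM scale that is not per length. Glutamate had 406 ± 38.9 CPM per copy (SD, n = 2), rank 12 of 22 isotypes. Its values in the libraries overlapped those of its neighbours below, tryptophan (404 ± 16.25) and isoleucine (383.5 ± 13.5 CPM per copy). Initiator methionine, at 442.1 and 443.1 CPM per copy, stood above the 378.7 and 433.7 of glutamate. The gap was more than the glutamate SD of 38.9 in replicate 1 and less in replicate 2. Aspartate (487 ± 14.15 CPM per copy) stood above glutamate in both libraries. Glutamine had 73.0 ± 8.28 CPM per copy (SD, n = 2), rank 21 in each library and mate. It lay below alanine (98.6 ± 6.92) and glycine (102.5 ± 10.8) and above valine (23.7 ± 6.97 CPM per copy) in both libraries. In R2 glutamate ranked 9 in replicate 1 and 7 in replicate 2.

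**Figure D4:**
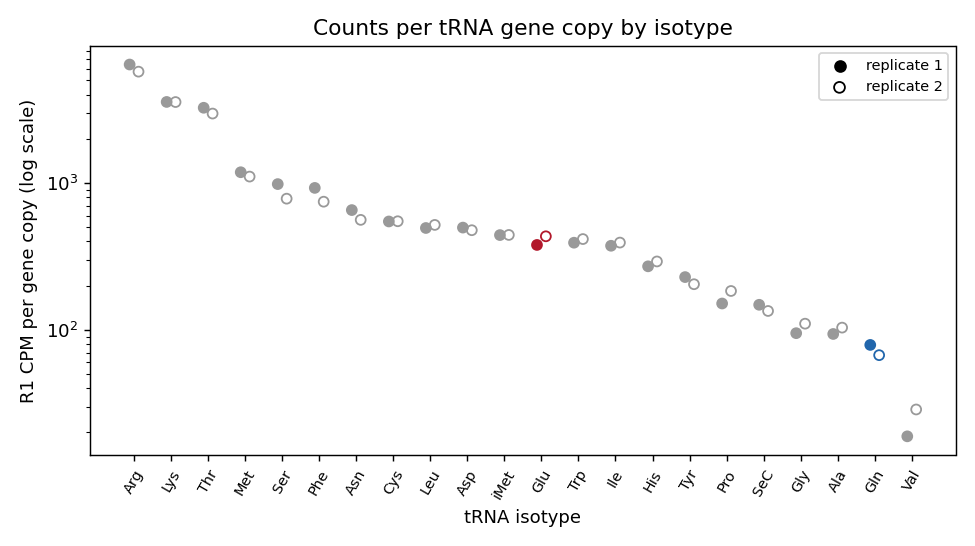
R1 CPM per gene copy on a log axis for 22 tRNA isotypes in order of their mean, with filled points for replicate 1 and open points for replicate 2. Glutamate (red) lies at 379 and 434 and glutamine (blue) at 78.9 and 67.2 CPM per copy, with valine alone below glutamine.

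Mitochondria have their own tRNAs for these amino acids, encoded in their genome. MT-TE, the glutamate one, had 47946 R2 against 34637 R1 counts in replicate 1 and 41384 against 30666 in replicate 2, so here the R2 count was the larger. Its R1 level was 1365 ± 176 CPM (SD, n = 2). MT-TQ, the glutamine one, had 14914 R2 against 51550 R1 counts and 13930 against 36507, and stood at 1810 ± 52.4 CPM in R1 (SD, n = 2). Glutamate was thus the lower of the mitochondrial pair in R1, unlike in the nuclear families. In R2 it was the higher of the pair in both libraries, as in the nuclear families.

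Genes of the enzymes that charge or modify these tRNAs also had counts, and their CPM, which is not per length, is not set against that of the tRNAs. Whether these counts come from mature mRNA was not tested. All 6 listed charging genes had a mean of at least 10 counts, between 2.51 and 18.96 CPM. EPRS, which encodes the glutamyl-prolyl-tRNA synthetase, had 318 and 546 counts, or 18.96 ± 10.7 CPM, and QARS, the glutaminyl-tRNA synthetase gene, had 114 and 273, or 8.67 ± 6.49 CPM (SD, n = 2 each). The mitochondrial synthetase gene EARS2 stood at 4.23 ± 1.92 CPM. GATC, GATB and QRSL1, which encode the amidotransferase that makes mitochondrial glutaminyl-tRNA, stood at 9.88 ± 5.46, 3.41 ± 1.63 and 2.51 ± 1.47 CPM (SD, n = 2 each). Of the 16 genes listed for wobble uridine modification, all 16 had a mean of at least 10 counts, with a median of 3.28 CPM. IKBKAP, the Elongator scaffold subunit, stood at 11.3 ± 5.44 CPM, and ELP2, another subunit, had 8.15 ± 4.34 CPM (SD, n = 2 each). The thiolation genes CTU1 and CTU2 had 1.065 ± 0.898 and 1.41 ± 1.03 CPM, and ALKBH8, a methyltransferase of this uridine, had 2.39 ± 0.743 CPM (SD, n = 2 each). CTU1 and CTU2 thus lay within the 0.557 to 1.96 CPM of the epithelial or luminal genes, while the median of 3.28 lay above that range. All 6 and all 16 of these genes were higher in replicate 2, by CPM ratios of 1.56 to 4.52, as were features at large (median log2 ratio 1.09).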

How the data were processed

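The deposited values are raw read counts, in 1 table for each read mate of each of the 2 libraries. The submitters' processing notes name hg19 (GRCh37) as build and, as tools, bedtools 2.24.0 and Bowtie2 2.3.5.1. How reads with several matches were placed and whether counting used strand is not given in the sources used here. HFE2, however, lies opposite to tRNA-Glu-CTC-1-1 and had 10356 and 9135 counts, against 10355 and 9133 for that tRNA. Reads there were thus counted for features of either strand, so counts of members may include antisense reads. Each table lists 741091 features, of which 13 lines were repeats and were dropped. R1 totals of 27907799 and 20590398 set the depth.

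Counts of members were summed by gene, isodecoder, anticodon and isotype. Shares used all 596 tRNA features as denominator, with exact 95% intervals. Starts of tRNA features were read as 0-based, since the RefSeq length equalled end minus start for 40 members and end minus start plus 1 for 0, and positions are printed 1-based. A ratio past 2-fold, at a mean R1 count of at least 10, was the call rule. TMM factors (edgeR 4.0.16) and DESeq2 1.42.0 size factors, in R 4.3.3, served as other scalings. Further alternatives were the R2 table, the sum of the mates, each replicate left out, other minimum counts, other denominators, and gene copies left out by rank, overlap or lack of counts. The other tools were matplotlib 3.10.9, scipy 1.17.1, pandas 2.3.3, numpy 2.4.6 and Python 3.11.15. Results were described without a test, as there was 1 group.

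The members and gene lists were chosen with earlier results of these data known. Named genes follow a rule: the 5 highest by mean R1 CPM in each anticodon family, the 3 highest and 3 lowest by the ratio between libraries and by R2 over R1, features overlapping those named by level, the isotypes next in order per copy, the listed charging and wobble uridine genes, MT-TE and MT-TQ. The silent genes, the other copies of a named isodecoder set, the RefSeq pseudogenes past the minimum, tRNA-Gln-CTG-7-1, tRNA-Glu-CTC-2-1 and genes named only for passing 2-fold lie outside it in part and were named only after seeing their values.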

Additional observations from a re-analysis of the deposited data

How the results depend on the processing

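Across 155 recomputed values, 96 stayed within 1 SD of the libraries (for counts of members within 1.5 times, for log2 medians within 0.1) and 59 did not. Leaving out either of 2 libraries cannot move their mean past 1 SD, so this is no sign of stability. Such values are among the 96. So are the difference between the isotype medians and the number past the minimum count under other scalings, which scaling cannot change. No paired analysis was possible because only 1 group exists. The cause was not tested where counts were not removed by the setting's own construction. A count of 0 allows up to 0.107 and 0.146 CPM at this depth.

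As percent of tRNA counts, for Glu, Gln, Glu-TTC, Glu-CTC, Gln-CTG and Gln-TTG in that order, the R2 table gave 3.083, 0.4926, 2.259, 0.8241, 0.3143 and 0.1783. The library total as denominator gave 1.137, 0.2264, 0.8384, 0.299, 0.1072 and 0.1193. Leaving the 10 highest tRNA features out of the total gave 3.857, 0.7653, 2.842, 1.015, 0.3621 and 0.4032. Without each family's highest gene the shares were 3.199, 0.426, 2.264, 0.9348, 0.3216 and 0.1044. The sum of both mates gave 2.293 for Glu, 0.4194 for Gln, 1.686 for Glu-TTC and 0.2225 for Gln-CTG. Leaving out tRNA features inside another gene gave 0.5921 for Gln, 0.2894 for Glu-CTC, 0.3027 for Gln-CTG and 0.2894 for Gln-TTG.

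The Glu over Gln count ratio, 5.083, was 6.327 in R2, 7.551 without each family's highest gene and 3.035 without members inside another gene. With genes ranked by R1 throughout, the highest Glu gene held 16.8% of Glu counts in R2 and 17.96% in the sum of the mates, the highest Gln gene held 24.99% and 34.73% of Gln counts, and the 5 highest 78.37% and 74.23%. CPM per gene copy was 647.6 for Glu and 94.5 for Gln in R2, 476.8 for Glu in the sum of the mates, and 455 and 87.08 with silent copies left out.

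The median log2 ratio of replicate 2 over replicate 1 was -0.8356 for Glu and -1.296 for Gln with TMM factors, -0.8379 and -1.298 with DESeq2 size factors, and 0.1284 and -0.3601 in R2, so the sign for Glu turned with the scaling. Members past 2-fold lower numbered 26 of 39 with TMM factors and 26 with DESeq2 size factors (62.2% of tRNA features with either). In R2 they numbered 3 of 37 (4.4% of tRNA features), and at a minimum mean count of 1 they numbered 2 of 48. With no minimum, 2 of the 50 members with any R1 count were past 2-fold lower and 2 higher. The shares of tRNA features at those minimum counts were not computed. The median R2 over R1 ratio of Glu was 0.6782 at a minimum of 1. Among the values of single genes, 40 of 59 moved by more than 1 SD in R2, 24 of them higher there and 16 lower. R2 was the only setting that could move them, as the others left out 1 library each.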
